A study of Mus musculus with 6 samples.

Results

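The Hox genes of mouse embryonic fibroblasts (MEF, connective tissue cells grown in dishes from mouse embryos) were compared between cells that had squeezed through narrow pores and parental cells that had not. The members are the 39 protein-coding genes whose GENCODE M21 symbol is Hox, a cluster letter from a to d and a number, out of 55335 genes in the deposited count table. They comprise 11 genes of the HoxA cluster, 10 of HoxB, 9 of HoxC and 9 of HoxD. The rule used the symbols alone and no measured value. The comparison asks whether both groups carry the same Hox pattern, that is, whether they could come from like fibroblasts.

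Both groups were wild type cells of a line labelled MEFs, cultured in Dulbecco's medium with fetal bovine serum and antibiotics. The paper's transwell protocol, written for wider pores, placed cells in serum-free medium above medium with serum. Whether the passage here used the same media is not stated, so serum and pore passage cannot be told apart. Ctrl was the parental population, and Confine was the cells that had crossed a transwell membrane with pores of 3 μm and were collected after 15 h. Polyadenylated RNA was sequenced and the deposited table holds 3 columns per group, but the repeated column labelled Confine 1 and Confine 2 holds equal counts in 55335 of 55335 genes and was used once, so 3 Ctrl and 2 Confine libraries remain. Strain, embryo age, sex and body region of origin are not given in the sources used here, and nothing says that the replicates were separate cultures, so p-values measure only the spread between these libraries, which may be technical. Total counts per library were between 22287210 and 32537550. Throughout, libraries are listed as Ctrl 1, 2 and 3 and then the repeated Confine library and Confine 3.

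Hox genes encode homeodomain transcription factors that give cells along the body axis and the limbs their regional identity. Mammals carry them in 4 clusters, each on its own chromosome, and genes at matching places in different clusters form a paralogue group. Groups with low numbers are used toward the head and groups with high numbers toward the tail and the ends of the limbs. Cultured fibroblasts are known to keep a Hox pattern that reflects where in the body they came from, held in place by Polycomb and Trithorax chromatin proteins, and Hox proteins bind DNA together with partners of the TALE homeodomain class.

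In both groups, every count fell on HoxA and HoxD. All 11 HoxA genes and 7 of the 9 HoxD genes had counts, whereas all 10 HoxB and all 9 HoxC genes, together with Hoxd1 and Hoxd3, were listed at 0 in all 5 libraries. A count of 0 allows up to 3 counts, which is between 0.101 and 0.128 normalized CPM per library (CPM, read counts scaled to a common library size by edgeR's TMM method; counting error only). These 21 genes were part of the 28270 genes at 0 in every library of the whole table, and they allow no comparison between the groups. The limit holds only if reads from these genes would have been counted, and the table does not show whether they were not expressed or were left out of counting. Of the exon bases of Hoxd3, 62.3% are shared with Hoxd4 and Gm28230 on the same strand, where reads may not be given to 1 gene.

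Paralogues resemble each other in the homeobox, so the letters that tell a counted gene from one at 0 are shown for group 13, the group with the highest number, in which Hoxa13 and Hoxd13 had counts and Hoxb13 and Hoxc13 had none. The stretch is 60 bases of coding exon from the homeobox (GENCODE M21 transcripts, GRCm38). Capitals mark the 23 positions at which the 4 genes are not all the same. The coordinates are chr6:52258949-52259008 on the minus strand for Hoxa13, chr11:96196119-96196178 on the plus strand for Hoxb13, chr15:102927309-102927368 on the plus strand for Hoxc13 and chr2:74670029-74670088 on the plus strand for Hoxd13.
Hoxa13: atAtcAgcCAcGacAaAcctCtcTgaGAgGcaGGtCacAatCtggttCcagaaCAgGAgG
Hoxb13: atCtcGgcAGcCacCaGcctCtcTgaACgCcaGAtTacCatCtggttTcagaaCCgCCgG
Hoxc13: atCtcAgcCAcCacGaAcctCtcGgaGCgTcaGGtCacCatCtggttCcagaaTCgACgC
Hoxd13: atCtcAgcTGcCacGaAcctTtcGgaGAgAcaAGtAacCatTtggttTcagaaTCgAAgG
Pairs of these 4 genes differed at 11 to 17 of the 60 bases. Over whole transcripts, 0 of the 39 Hox genes had a stretch of at least 100 bases at 95% identity or more in common with a Hox gene of another cluster. Within a cluster, Hoxc5 matched Hoxc10 and Hoxd3 matched Hoxd4 at that length, pairs that also share annotated exon bases.

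Genes around the clusters without counts were counted. HoxB spans chr11:96194316-96368256 and HoxC spans chr15:102921103-103036852 (GRCm38). Of the 10 nearest protein-coding neighbours, 5 on each side, 9 had counts beside HoxB and 9 beside HoxC. Beside HoxB, Atp5g1, which encodes a subunit of mitochondrial ATP synthase, had 50268 counts over the 5 libraries, and beside HoxC, Hnrnpa1, an RNA-binding protein, had 210733. Within the 2 spans, 15 of 16 annotated noncoding genes and pseudogenes were also at 0, among them Hotair, a long noncoding RNA of HoxC. The exception was Gm11539, a pseudogene inside HoxB, with 16, 17, 22, 29 and 23 counts. HoxA (chr6:52155590-52260880) and HoxD (chr2:74668310-74765142) held 27 such genes, of which 18 had counts.

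**Figure D1:**
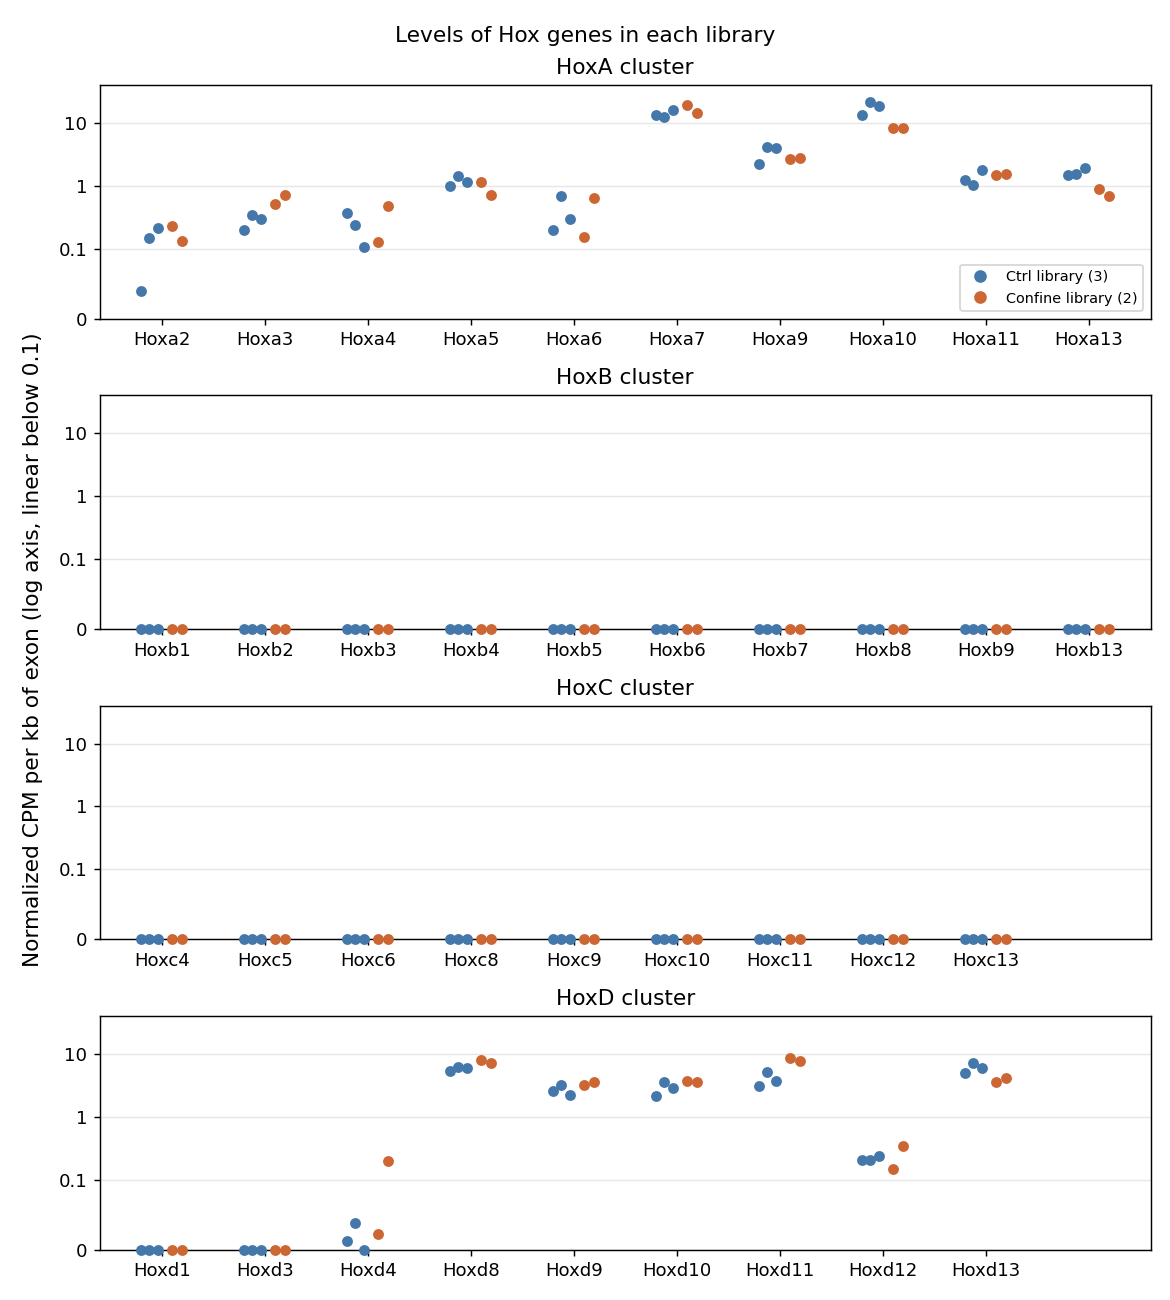
Level of Hox genes in each library, in normalized CPM per kb of exon on a log axis that is linear below 0.1, by cluster, with 3 Ctrl libraries in blue and 2 Confine libraries in orange. All points of HoxB and HoxC lie at 0, and the highest points are those of Hoxa10 and Hoxa7.

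Of the 18 Hox genes with counts, 17 passed the filter on low counts and were tested, 11 of HoxA and 6 of HoxD, and 0 of them passed only through the Confine libraries. The remaining one was Hoxd4, a group 4 gene used in the hindbrain, with 1, 3, 0, 2 and 15 counts. It shares 52.3% of its exon bases with other genes on the same strand, Hoxd3 among them. The tested genes nearest to the filter were Hoxa2, a hindbrain gene, with 2, 7, 9, 12 and 6 counts, and Hoxa6 with 5, 16, 6, 4 and 14 counts. Values of these genes rest on a handful of reads.

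By group means, the same 5 genes had the highest levels per length in both groups, in another order. On the scale of normalized CPM per kb of exon, Hoxa10 had the highest mean level in Ctrl (17.8 ± 4.29, SD, n = 3), followed by Hoxa7 (14.0 ± 1.86), Hoxd13 (6.04 ± 1.06), Hoxd8 (5.89 ± 0.409) and Hoxd11 (3.97 ± 1.06). In Confine the order was Hoxa7 (16.7 ± 3.24, SD, n = 2), Hoxd11 (8.21 ± 0.652), Hoxa10 (8.20 ± 0.0689), Hoxd8 (7.57 ± 0.417) and Hoxd13 (3.81 ± 0.382). Between libraries, the levels of Hoxa10 and Hoxa7 overlapped in Ctrl, as did those of Hoxd13 and Hoxd8, while Hoxd11 was below Hoxd8 in each. In Confine, the levels of Hoxd11 overlapped with those of both Hoxa10 and Hoxd8. In single libraries the set was not always the same, since Hoxa9 (3.92) was above Hoxd11 (3.68) in Ctrl 3 and Hoxd10 (3.65) above Hoxd13 (3.54) in the repeated Confine library, all in normalized CPM per kb. The set also depends on dividing by annotated exon length. In mean normalized CPM, Hoxa9 (19.0 in Ctrl and 15.2 in Confine) was above Hoxd13 (15.0 in Ctrl and 9.45 in Confine).

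Against this shared set, 5 of the 17 tested Hox genes (29.4%) differed between the groups at an adjusted p under 0.05 (quasi-likelihood test of edgeR, adjusted by the Benjamini-Hochberg method), where 23.0% of all 15881 tested genes did. Hoxa3 and Hoxd11 were upregulated in Confine, and Hoxa10, Hoxa13 and Hoxd13 were downregulated. For 1 direction at a time, 12.8% of all genes were higher and 10.2% lower. With an absolute log2 fold change above 1.5 as a further cutoff, 0 Hox genes passed in edgeR and 0 in DESeq2, whereas 4.89% of all genes were higher and 3.11% lower by that rule in edgeR. At an unadjusted p under 0.05, 6 Hox genes passed in edgeR. The share of all tested genes at that threshold was not computed, so this count cannot be weighed. The median log2 fold change of the 17 genes was 0.26, with a range from -1.12 to 1.12, and that of all tested genes was -0.0021. In bulk RNA, fewer cells that express a gene and less of its RNA per cell cannot be told apart.

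Hoxa13 and Hoxd13, which pattern the hand and foot plate and the genital tubercle, were both downregulated in Confine. Hoxd13, on the plus strand at chr2:74668310-74671599 (GRCm38), had 356, 465 and 355 counts in Ctrl and 260 and 255 in Confine. In normalized CPM this was 15.0 ± 2.64 (SD, n = 3) in Ctrl and 9.45 ± 0.948 (SD, n = 2) in Confine. Both Confine libraries were below all 3 Ctrl libraries, in normalized CPM as in counts. The log2 fold change was -0.67 (SE 0.22, adjusted p = 0.0381), the smallest of the 5. Without Ctrl 2, without the repeated Confine library or without Confine 3, the adjusted p of Hoxd13 was 0.0665, 0.253 and 0.122.

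Hoxa13, on the minus strand at chr6:52257694-52260880, had 107, 102 and 110 counts in Ctrl and 64 and 42 in Confine, or 4.08 ± 0.527 normalized CPM (SD, n = 3) and 1.91 ± 0.35 (SD, n = 2). The Ctrl libraries were tightly grouped and both Confine libraries were below them. The log2 fold change was -1.08 (SE 0.31, adjusted p = 0.0162). Without Ctrl 3 or without Confine 3, the adjusted p of Hoxa13 was 0.0504 and 0.154. The sum of both group 13 genes was 7.69 ± 1.12 normalized CPM per kb (SD, n = 3) in Ctrl and 4.58 ± 0.240 (SD, n = 2) in Confine.

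Hoxa10, a gene of the lumbar region, the upper leg and the uterus, gave the lowest adjusted p of the family. It lies on the minus strand at chr6:52231197-52240854 and had 1251, 1879 and 1422 counts in Ctrl and 798 and 671 in Confine. In normalized CPM, Ctrl held 43.2, 71.0 and 60.5 and Confine 27.0 and 26.6. The Ctrl libraries varied widely, but the lowest of them was still above both Confine libraries, which were nearly equal. The gene was 2.17-fold lower in Confine (log2 fold change -1.12, SE 0.22, adjusted p = 0.000795). None of its exon bases is shared with another annotated gene, and Hoxa10 kept an adjusted p under 0.05 in all 13 alternative fits.

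Hoxd11, a gene of the forearm and lower leg and of the kidney, moved in the opposite direction from its neighbour Hoxd13, from which only Hoxd12 separates it. It lies on the plus strand at chr2:74679557-74687016 and had 376, 573 and 364 counts in Ctrl and 1081 and 822 in Confine, or 13.0, 21.7 and 15.5 against 36.5 and 32.6 normalized CPM. Both Confine libraries were above every Ctrl library. The gene was 2.07-fold higher in Confine (log2 fold change 1.05, SE 0.21, adjusted p = 0.00128), and it too kept an adjusted p under 0.05 in all 13 alternative fits. It shares 10.8% of its exon bases with the annotated read-through Gm28309 on the same strand.

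The ratio of levels per length of Hoxd11 to Hoxd13 was 0.623, 0.726 and 0.604 in Ctrl and 2.45 and 1.90 in Confine. Per length, Hoxd13 was the higher of the pair in each Ctrl library and Hoxd11 in each Confine library. The order in Ctrl depends on dividing by annotated exon length, 4212 bases for Hoxd11 and 2483 for Hoxd13, since Hoxd11 had more counts than Hoxd13 in each Ctrl library. The rise of the ratio from Ctrl to Confine does not depend on length. Hoxd12, between them, had 15, 14, 14, 11 and 22 counts, with a log2 fold change of 0.17 (SE 0.56, adjusted p = 0.867).

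Hoxa3, which acts in the pharyngeal arches, the thymus and the parathyroid, was the only called gene of a low paralogue group. It spans chr6:52169062-52213336 on the minus strand and had 34, 55 and 42 counts in Ctrl and 91 and 107 in Confine, or 1.68 ± 0.461 normalized CPM (SD, n = 3) and 3.66 ± 0.83 (SD, n = 2). Hoxa3 was higher in either Confine library than in any Ctrl library. The log2 fold change was 1.12 (SE 0.34, adjusted p = 0.0221). Without Ctrl 1 or without Confine 3, the adjusted p of Hoxa3 was 0.105 and 0.232, and it was 0.0596 when libraries were scaled by their size only. Of its exon bases, 25.4% are shared with genes on the opposite strand, and whether reads were counted by strand is not given in the sources used here.

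**Figure D2:**
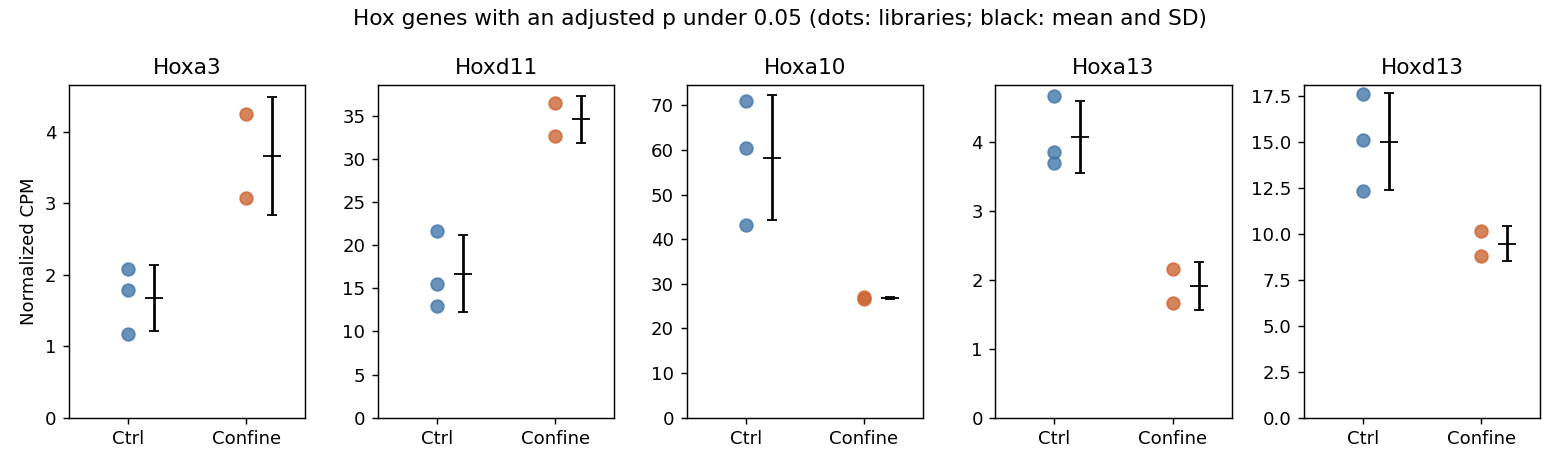
Normalized CPM of the 5 Hox genes at an adjusted p under 0.05, with a dot per library and the mean ± SD in black, for Ctrl (n = 3) and Confine (n = 2) on linear axes from 0. The Confine libraries lie above all Ctrl libraries for Hoxa3 and Hoxd11 and below them for Hoxa10, Hoxa13 and Hoxd13.

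The other 12 tested genes did not pass. Hoxa5, a gene of the lung and the neck, had 53, 72 and 51 counts in Ctrl and 64 and 34 in Confine (log2 fold change -0.34, SE 0.36, adjusted p = 0.555). Hoxd8, a trunk gene and the most abundant gene of HoxD after Hoxd11 in Confine, had 432, 453 and 386 counts in Ctrl and 639 and 503 in Confine, with a log2 fold change of 0.36 (SE 0.19, adjusted p = 0.189). The Confine values of Hoxd8 in normalized CPM were above all Ctrl values, but the difference did not pass over all genes, and the values of Hoxa5 overlapped.

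Hoxa7, a gene of the thoracic region, had 1118, 953 and 1089 counts in Ctrl and 1619 and 1046 in Confine, or 38.6, 36.0 and 46.3 against 54.7 and 41.5 normalized CPM. The groups overlapped (log2 fold change 0.26, SE 0.19, adjusted p = 0.382). Hoxa9, the next gene along the cluster, had 12.4, 22.7 and 21.9 against 15.0 and 15.4 normalized CPM, again with overlap (log2 fold change -0.32, SE 0.24, adjusted p = 0.382). Hoxa4, Hoxa6 and Hoxa2 had standard errors of 0.70, 0.75 and 0.76 on the log2 scale, so a change of the size seen in Hoxa10 was not detectable for them at this depth.

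**Figure D3:**
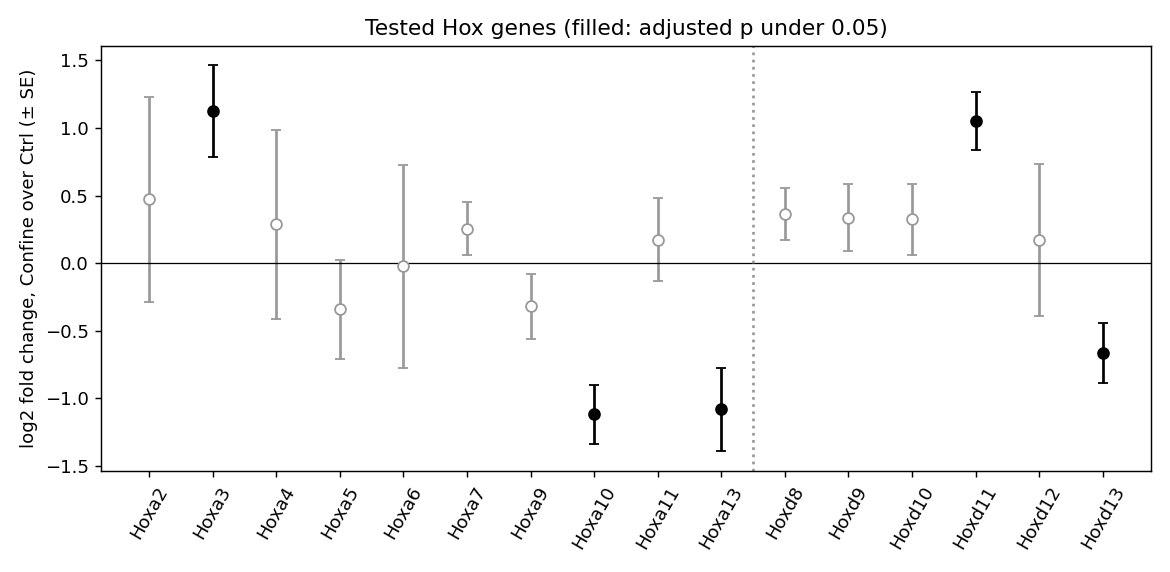
Log2 fold change, Confine over Ctrl, of tested Hox genes in order of paralogue group within HoxA (left of the dotted line) and HoxD (right), with bars of 1 standard error and filled points for an adjusted p under 0.05. The filled points are Hoxa3 and Hoxd11 above 0 and Hoxa10, Hoxa13 and Hoxd13 below.

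Counting genes whose libraries did not overlap between the groups in normalized CPM gave 4 higher and 3 lower in Confine, 7 of the 17 (41.2%), where 49.5% of all tested genes did not overlap. With 3 libraries against 2, a two-sided exact permutation test of a single gene cannot give a p below 0.1, and it gave 0.1 for Hoxa3, Hoxd11, Hoxa10, Hoxa13 and Hoxd8 and 0.2 for Hoxd13.

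By cluster, the summed Hox level of HoxA was 42.1 ± 6.18 normalized CPM per kb (SD, n = 3) in Ctrl and 34.7 ± 2.67 (SD, n = 2) in Confine, with overlap between the libraries. That of HoxD was 21.7 ± 3.57 in Ctrl and 26.9 ± 0.269 in Confine, and the groups did not overlap. The sum over all Hox genes was 63.7 ± 9.18 in Ctrl and 61.7 ± 2.94 in Confine, a difference smaller than the spread within Ctrl. HoxD thus made up 34.5%, 36.0% and 31.5% of the summed level in Ctrl and 42.5% and 44.9% in Confine.

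By paralogue group, group 10 made up 28.8%, 35.7% and 31.9% of the summed level in Ctrl and 18.7% and 19.6% in Confine. Group 11 went from 8.10%, 8.73% and 8.09% in Ctrl to 16.0% and 15.5% in Confine, and group 13 from 12.1%, 12.2% and 11.9% to 6.92% and 7.98%. Libraries of the same condition were close to each other for paralogue groups 11 and 13. For group 10, the Ctrl libraries varied more. Ctrl and Confine did not overlap in the shares of groups 10, 11 and 13. Group 7 did overlap, at 25.2%, 17.7% and 24.0% in Ctrl and 29.8% and 24.2% in Confine. Group 9 differed by less than its spread, at 8.99%, 10.3% and 9.14% against 9.27% and 10.6%. Groups 9 to 13 together held 58.4%, 67.2% and 61.4% of the summed level in Ctrl and 51.0% and 54.3% in Confine. Groups 1 to 3 held 3.37%, 2.86% and 3.36% in Ctrl and 4.48% and 5.85% in Confine. Ctrl and Confine libraries did not overlap in either share. The level of groups 9 to 13 in normalized CPM per kb did overlap, at 31.1, 47.6 and 41.2 against 32.5 and 32.3. Their share was lower in Confine for HoxA only. Groups 9 to 13 of HoxA held 34.1%, 40.1% and 38.9% in Ctrl and 20.9% and 21.98% in Confine. Those of HoxD held more in Confine, at 24.3%, 27.1% and 22.5% in Ctrl and 30.1% and 32.3% in Confine. These shares are descriptions of the members' sums and carry no test.

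**Figure D4:**
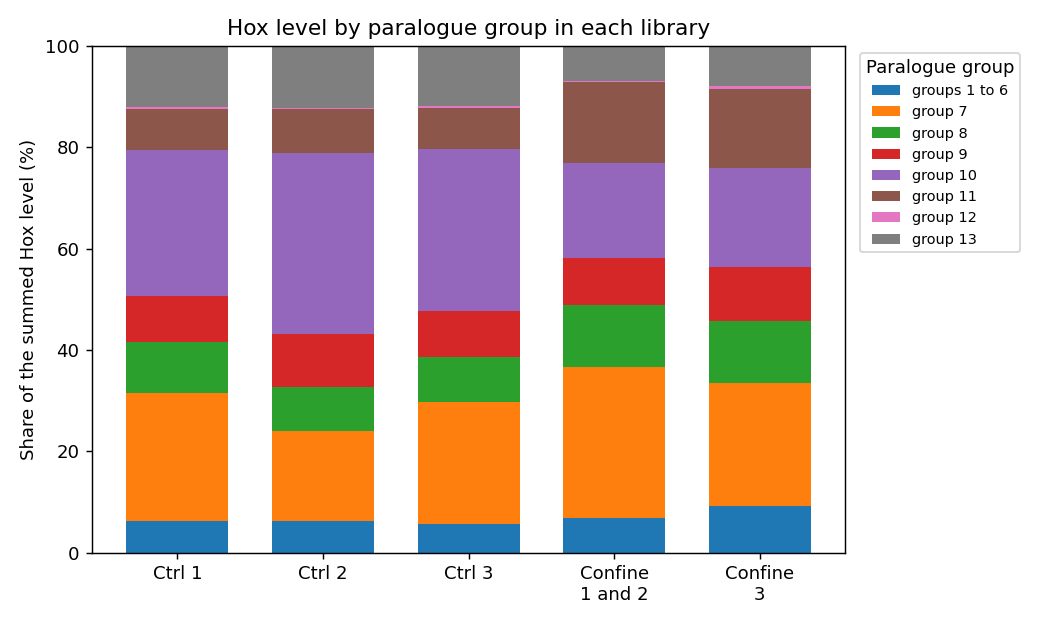
Share of the summed Hox level (normalized CPM per kb of exon, in percent) held by each paralogue group in each of the 5 libraries. Group 11 is wider and groups 10 and 13 are narrower in both Confine columns than in the 3 Ctrl columns.

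As a measure of how far libraries lay apart, the root mean square difference of log2(CPM + 0.1) was taken between each pair of libraries. Over the 13 Hox genes with a mean of at least 50 counts, it was 0.670 to 0.806 between a Ctrl and a Confine library, 0.353 to 0.532 within Ctrl and 0.292 within Confine. For these 13 genes, libraries of different groups lay farther apart than libraries of the same group. Over all 17 tested Hox genes, which include those with few reads, the ranges overlapped, at 0.637 to 0.844 between groups, 0.451 to 0.644 within Ctrl and 0.640 within Confine. Over all 11794 tested genes with as many counts, the same measure was 0.828 to 0.900 between groups, 0.320 to 0.455 within Ctrl and 0.347 within Confine.

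Annotated promoters are shown for the genes that moved most clearly, Hoxd11 and Hoxa10, and for Hoxd13, which moved against its neighbour Hoxd11. Each is 300 bases from RefSeq (GRCm38.p6), from 250 before the annotated start of transcription to 50 after it. A promoter was found by symbol for 22 of the 39 Hox genes. Where a gene had 2 windows, as Hoxd11 and Hoxa10 did, the one nearest to its GENCODE start was taken. Which start these cells used was not measured, so the windows shown may not be the promoters in use. The windows of Hoxa7, Hoxa9, Hoxd4 and Hoxc4 lay 3281, 3719, 10049 and 15461 bases from that start. They are included in the counts over Hox windows below. Capitals mark matches, on either strand, to ACGTG, the core letters bound by hypoxia-inducible factors. The windows are chr2:74667975-74668274 on the plus strand for Hoxd13, chr2:74679308-74679607 on the plus strand for Hoxd11 and chr6:52240805-52241104 on the minus strand for Hoxa10.
Hoxd13: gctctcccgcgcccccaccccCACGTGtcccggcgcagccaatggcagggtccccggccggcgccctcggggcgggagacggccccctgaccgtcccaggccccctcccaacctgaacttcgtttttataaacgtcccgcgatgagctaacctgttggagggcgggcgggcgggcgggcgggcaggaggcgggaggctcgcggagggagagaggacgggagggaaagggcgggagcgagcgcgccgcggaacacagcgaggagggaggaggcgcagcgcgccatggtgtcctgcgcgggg
Hoxd11: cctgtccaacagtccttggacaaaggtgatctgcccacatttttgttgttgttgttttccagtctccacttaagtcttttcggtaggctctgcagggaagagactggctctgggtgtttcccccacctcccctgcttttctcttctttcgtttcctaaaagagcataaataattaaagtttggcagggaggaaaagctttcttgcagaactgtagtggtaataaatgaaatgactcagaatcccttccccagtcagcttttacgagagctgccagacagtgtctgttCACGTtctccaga
Hoxa10: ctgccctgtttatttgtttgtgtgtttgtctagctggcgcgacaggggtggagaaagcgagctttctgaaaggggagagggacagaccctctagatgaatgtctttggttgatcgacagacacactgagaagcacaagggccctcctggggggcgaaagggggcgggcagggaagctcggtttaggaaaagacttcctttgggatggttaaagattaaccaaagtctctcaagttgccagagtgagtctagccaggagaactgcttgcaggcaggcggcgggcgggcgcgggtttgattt
The Hoxd13 window held 37 CpG pairs at 74.3% GC, that of Hoxd11 held 4 at 45.7% GC and that of Hoxa10 held 12 at 54.3% GC. In Hoxd13 the letters lie at bases 22 to 27, where matches on both strands overlap, and in Hoxd11 at bases 288 to 292, after the start. Such matches are common, since 19.6% of all 32851 windows hold ACGTG.

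Over the 22 Hox windows, 6 held ACGTG, 5 of them among the 16 windows of genes with counts and 1 among the 6 of genes at 0. The letters GCGTG, another form of the same core, were in 7 Hox windows and in 32.4% of all. TGACAG, the core bound by Meis proteins, was in 2 Hox windows and in 19.2% of all, and TGATNNAT, a letter pattern bound by Hox and Pbx proteins together, was in 3 Hox windows and in 8.85% of all. Both strands were searched, and these are letter matches, not binding sites. CpG pairs had a median of 13.5 (range 9 to 29) in the windows of the 6 genes at 0 and of 14 (range 4 to 45) in those of the 16 genes with counts, against 7 over all windows.

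Of the 43 antisense, other noncoding and pseudogenes inside the clusters, 9 were tested and 1 was called (11.1%, against 23.0% of all tested genes), and the median log2 fold change was 0.35. Hoxaas2, an antisense RNA at chr6:52165674-52169564 whose exons overlap those of Hoxa3, had 22, 11 and 20 counts in Ctrl and 54 and 44 in Confine (log2 fold change 1.40, SE 0.44, adjusted p = 0.0273). The groups did not overlap. Reads in the overlap of Hoxaas2 and Hoxa3 cannot be told apart without strand, and the gene passed in 0 of the fits that left out Ctrl 2 or either Confine library. Hoxa11os, the antisense RNA of the limb gene Hoxa11, had 46.6, 48.7 and 75.9 against 44.5 and 49.2 normalized CPM (log2 fold change -0.29, SE 0.22, adjusted p = 0.383). Its level per length was 12.3, 15.2 and 14.1 times that of Hoxa11 in Ctrl and 9.61 and 10.6 times in Confine.

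The TALE cofactors, the Pbx, Meis and Pknox proteins that bind DNA beside Hox proteins, had 9 members tested, of which 1 rose and 2 fell (33.3%, against 23.0% of all tested genes). Their median log2 fold change was 0.13. Meis2 had 588, 506 and 516 counts in Ctrl and 1311 and 1384 in Confine, or 20.3, 19.1 and 21.9 against 44.3 and 55.0 normalized CPM. It was 2.42-fold higher in Confine (log2 fold change 1.28, SE 0.18, adjusted p = 4.63e-05), with both Confine libraries far above the closely grouped Ctrl libraries. Pbx3 fell from 540, 676 and 404 counts to 343 and 283 (log2 fold change -0.84, SE 0.22, adjusted p = 0.00865), and Pknox2 from 155, 65 and 112 counts to 53 and 52 (log2 fold change -1.12, SE 0.35, adjusted p = 0.0275). Without either Confine library, the adjusted p of Pbx3 was 0.0797 and 0.0973. Of the fits that left out a library, Pknox2 passed only in that without Ctrl 2, with adjusted p-values of 0.125 without Ctrl 1, 0.0521 without Ctrl 3, 0.175 without the repeated Confine library and 0.109 without Confine 3.

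Retinoic acid, a signal that switches on Hox genes in the embryo, was covered by 18 genes, of which 12 were tested, 3 rose and 2 fell (41.7%, against 23.0% of all tested genes), with a median log2 fold change of 0.19. Crabp2, which carries retinoic acid to its receptors, went from 195, 269 and 294 normalized CPM in Ctrl to 805 and 879 in Confine (log2 fold change 1.74, SE 0.19, adjusted p = 2.8e-06). Rara, a retinoic acid receptor, went from 16.4, 19.1 and 16.0 to 29.5 and 45.4 normalized CPM (log2 fold change 1.12, SE 0.21, adjusted p = 0.000492). Both genes were higher in each Confine library than in any Ctrl library. Rdh10, the enzyme that makes retinal from retinol, had a log2 fold change of 0.99 (SE 0.21, adjusted p = 0.00219), and Rxra, the partner of the receptors, one of -0.77 (SE 0.19, adjusted p = 0.00671). Cyp26a1, which breaks retinoic acid down, had 17, 13 and 12 counts in Ctrl and 2 and 1 in Confine (adjusted p = 0.0092).

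Without the repeated Confine library, Rdh10 had a log2 fold change of 0.53 (adjusted p = 0.184), and Rxra had an adjusted p of 0.174 and Cyp26a1 one of 0.0805. Without Confine 3, the adjusted p was 0.0548 for Rara and 0.117 for Cyp26a1. Aldh1a2, the main retinoic acid synthase of the embryo, was listed at 0 in all libraries, as was Rxrg, a partner receptor.

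Polycomb proteins keep Hox genes silent and Trithorax proteins keep them active. All 31 listed genes were tested, 3 rose and 4 fell, and the median log2 fold change was -0.07. The called share of 22.6% was close to the 23.0% of all tested genes, so the values that follow describe single genes and not the list. Pcgf5, a subunit of Polycomb complex PRC1, went from 10.8, 16.1 and 7.61 to 46.3 and 59.6 normalized CPM (log2 fold change 2.20, SE 0.25, adjusted p = 2.73e-06). Kdm6b, a demethylase that removes the Polycomb mark, went from 139, 169 and 186 to 552 and 444 (log2 fold change 1.60, SE 0.19, adjusted p = 4.72e-06), and Jarid2, an accessory subunit of PRC2, from 9.54, 13.9 and 14.4 to 34.4 and 36.6 (log2 fold change 1.49, SE 0.21, adjusted p = 2.84e-05). In these 3 genes the lowest Confine library was more than 2 times the highest Ctrl library.

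Ezh2, the methyltransferase of PRC2, fell from 118, 107 and 110 to 63.0 and 69.0 normalized CPM (log2 fold change -0.76, SE 0.18, adjusted p = 0.00435). Phf19, which brings PRC2 to its sites, fell from 4.84, 5.22 and 4.68 to 1.11 and 1.35 (log2 fold change -1.99, SE 0.31, adjusted p = 0.000119). Cbx6 and Bmi1, both of PRC1, had log2 fold changes of -0.85 (adjusted p = 0.00252) and -0.59 (adjusted p = 0.0407). Without the repeated Confine library, the adjusted p was 0.0839 for Ezh2, 0.0523 for Cbx6 and 0.247 for Bmi1. Bmi1 also had an adjusted p of 0.0867 without Ctrl 1, 0.0532 without Ctrl 2 and 0.158 without Confine 3. Kmt2a, the Trithorax methyltransferase of Hox genes, had 46.4, 58.1 and 42.6 against 46.5 and 46.8 normalized CPM (log2 fold change -0.07, adjusted p = 0.833).

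Factors other than Hox genes that mark body regions numbered 68, of which 35 were tested and 23 were at 0 in all libraries. Of the 35, 4 rose and 7 fell (31.4%, against 23.0% of all tested genes, 12.8% higher and 10.2% lower), and their median log2 fold change was -0.30. Dlx5, a factor of the jaw and the limb skeleton, had 134, 90 and 128 counts in Ctrl and 25 and 16 in Confine (log2 fold change -2.58, SE 0.37, adjusted p = 3.98e-05). Its neighbour Dlx6 had 18, 16 and 11 counts against 0 and 1 (adjusted p = 0.00272). Lhx9 and Six4, factors of the limb bud and gonad and of muscle precursors, had log2 fold changes of -1.03 (adjusted p = 0.00313) and -1.04 (adjusted p = 0.00384). Without the repeated Confine library the adjusted p of Dlx6 was 0.0678, and without Confine 3 that of Six4 was 0.0606.

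Among those that rose, Meox1, a somite factor, had 26, 7 and 23 counts in Ctrl and 120 and 121 in Confine (log2 fold change 2.63, SE 0.41, adjusted p = 0.000119). Prrx1, a factor of limb and face mesenchyme, had 150, 221 and 190 normalized CPM against 336 and 389 (log2 fold change 0.95, SE 0.19, adjusted p = 0.00114). Zic2, a factor of the neural tube, had a log2 fold change of 1.33 (SE 0.28, adjusted p = 0.00181). The groups did not overlap in any of these genes. The list was chosen with earlier results of these data known, and the genes above were picked by lowest p. Those that follow were added after their values were seen. Irx3 (log2 fold change 1.13, adjusted p = 0.0404), Meox2 (-1.03, adjusted p = 0.00811) and Msx2 (-1.80, adjusted p = 0.00868) were also called. Without Confine 3, their adjusted p-values were 0.215, 0.148 and 0.0847. Without the repeated Confine library, that of Irx3 was 0.110 and that of Msx2 was 0.0570, and Irx3 had 0.0750 without Ctrl 1 and 0.146 without Ctrl 3.

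The factors that separate forelimb from hindlimb, also named after their values were seen, had like values in both groups. Tbx5, the forelimb factor, had 256, 313 and 255 counts in Ctrl and 266 and 279 in Confine, or 8.84, 11.8 and 10.8 against 8.99 and 11.1 normalized CPM, with a log2 fold change of -0.07 (SE 0.22, adjusted p = 0.869). Tbx4, a hindlimb factor, had 1 count in Ctrl 2 and 1 in the repeated Confine library, and Pitx1, the other hindlimb factor, had 0 in all libraries.

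**Figure D5:**
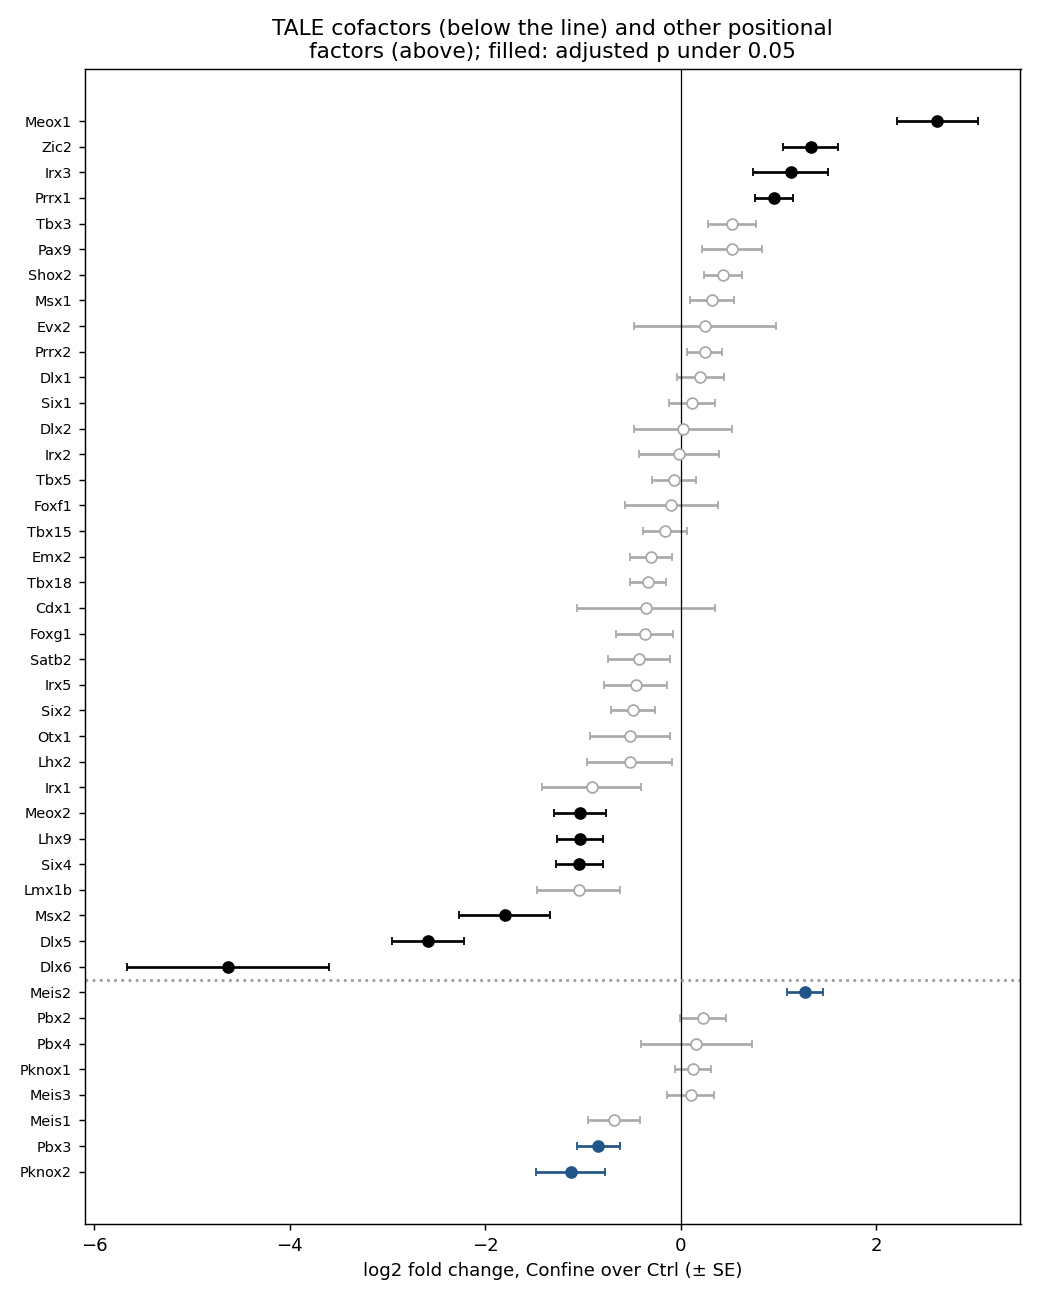
Log2 fold change, Confine over Ctrl, with bars of 1 standard error, of tested positional factors outside the Hox family (above the dotted line) and TALE cofactors (below it), filled for an adjusted p under 0.05. Meox1 lies farthest to the right and Dlx6 farthest to the left, where the position depends on the fit's prior because its Confine counts were 0 and 1.

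The label of the cells was checked against marker genes. Of 17 fibroblast markers, 14 were tested, 8 rose and 1 fell (64.3%, against 23.0% of all tested genes). Their summed level was 9746 to 10873 normalized CPM in Ctrl and 17682 to 18656 in Confine. Col1a1, Vim and Fn1 were abundant in all libraries, whereas Thy1 (0, 0, 2, 0 and 0 counts) and Lum (0, 0, 1, 0 and 0) were at or near 0. Markers of other cell types summed to far less than the fibroblast markers, but most moved with the groups. Some sums were above called Hox genes such as Hoxa13, at 4.08 normalized CPM in Ctrl and 1.91 in Confine. Of those tested, 100% of the epithelial, endothelial, leukocyte and muscle markers and 50% of the neural ones were called. These lists held few tested genes, and the share of all tested genes was 23.0%. Of 9 epithelial markers 1 was tested and rose, and they summed to 0.415 to 0.794 normalized CPM in Ctrl and 4.05 to 8.77 in Confine, nearly all from Krt19, with Epcam, Krt18 and Grhl2 at 0. The 7 endothelial markers summed to 4.66 to 7.83 against 1.15 to 2.50, with Tie1 and Emcn at 0, and the 1 tested, Erg, fell. The 9 leukocyte markers summed to 15.8 to 17.8 against 35.6 to 41.3, with Adgre1 and Cd3e at 0, and of 4 tested, 3 rose and 1 fell. The 6 skeletal muscle markers summed to 4.76 to 6.36 against 13.3 to 15.3, and both tested, Des and Acta1, rose. The 8 neural and neural crest markers summed to 20.1 to 25.9 against 15.9 to 18.6, and of 4 tested, 1 rose and 1 fell. The 5 pluripotency markers summed to 0.213 to 1.10 in Ctrl and 0.236 to 0.278 in Confine. The part of any of these in the Hox differences was not tested.

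Genes of the Y chromosome were used to compare the sex of the cells. Ddx3y, Eif2s3y, Kdm5d and Uty were counted in all 5 libraries, summed to 99.0 to 112 normalized CPM in Ctrl and 118 to 124 in Confine, and 0 of the 4 had an adjusted p under 0.05 or an unadjusted p under 0.05 in edgeR. Of all tested genes, 23.0% passed the adjusted threshold. Xist had 10 counts in the repeated Confine library and 0 in the other 4.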

How the data were processed

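RNA-seq of MEF cells was measured in 3 Ctrl and 3 Confine samples. The authors deposited raw counts per gene, made, according to the submitters' processing notes, with Trim Galore 0.6.10, HISAT2 2.1.0, SAMtools 1.5 and featureCounts on mm10. Library preparation kept the strand, but the strand setting of counting is not given in the sources used here, and it can move counts between overlapping genes. Columns not used numbered 0. Of 55335 gene identifiers, 55154 matched GENCODE M21 (GRCm38) without their version and 54587 with it. The identical columns of Confine replicates 1 and 2 were counted once.

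Genes kept by edgeR's filterByExpr (minimum count 10, minimum total 15, 15881 genes) were scaled by TMM (factors 1.04, 1.08 and 1.06 in Ctrl, 0.910 and 0.924 in Confine) and compared in edgeR 4.0.16 (R 4.3.3) by its quasi-likelihood test, with Benjamini-Hochberg adjustment over all tested genes and no replicate block. Residual degrees of freedom were 3, and the prior ones had a median of 14.8. Levels per length are normalized CPM divided by the kb of annotated exon. Transcripts were compared with blastn 2.17.0. Intervals and limits for counts of 0 cover counting error only.

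On counts simulated for this comparison over 15881 genes, 200 of them changed, edgeR recovered 52% of 2-fold and 89% of 4-fold changes, with 3.42% of calls false. The simulated spread followed the trend over genes of like abundance and not that of each gene. In the data, 3654 genes were called, so these shares need not hold for the real libraries. The Hox genes and the other lists were chosen with earlier results of these data known. Values per library are given for called Hox genes, the most abundant of each cluster and those nearest to the filter, and for up to 8 called genes per other list, lowest p first. Alternatives were DESeq2 1.42.0, RLE factors, library size alone, other filters, the identical columns as 2 libraries, a replicate block and leaving out each library. The values of some single members of these lists are not reported here.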

Additional observations from a re-analysis of the deposited data

How the results depend on the processing

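Hoxa10 and Hoxd11 had the same direction and passed the threshold in all 13 alternative fits, with log2 fold changes of -1.30 to -0.95 and 0.89 to 1.28 when each library was left out, while Hoxa3, Hoxa13 and Hoxd13 did not. None of the called Hox, TALE, retinoic acid, Polycomb and positional genes named in the text reversed direction in these fits. Of their values under the alternatives, 354 stayed on their side of the threshold and 42 lost it. Leaving out each library in turn gave 1 to 2 Hox genes higher in Confine, 1 to 3 lower, 1 to 3 TALE cofactors, 2 to 6 retinoic acid genes, 4 to 8 Polycomb and Trithorax genes, 6 to 11 other positional factors and 0 to 1 noncoding genes. With 1 Confine library left, that library is assumed to vary like the others, and fewer samples remain.

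When libraries were scaled by their size only, without TMM factors, the median over all tested genes shifted by -0.21 on the log2 scale and 34.0% of the called genes were higher, against 55.7% with TMM. Then 1 Hox gene was higher (Hoxd11), 3 were lower and 0 noncoding genes were called, and the median of the tested Hox genes was 0.05. DESeq2 gave the same counts of Hox genes, 2 higher and 3 lower. Counted as 2 libraries, the identical columns gave 3 higher and 3 lower.

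Whether the replicate numbers pair the samples cannot be settled here. With 2 Confine libraries, their deviations from the group mean mirror each other, so the correlations are not independent. Deviations from the group means of same-numbered libraries had correlations of -0.08 and -0.01 across genes with the repeated library as replicate 2, and 0.09 and -0.01 with it as replicate 1, over 2 pairs. Over all genes, the block gave 2528 calls with the repeated library as 2 and 4933 with it as 1, against 3654 without it. With the replicate block and the repeated library as 2, 1 Hox gene was higher and 0 noncoding genes were called. Hoxa3 then had a log2 fold change of 0.90 and an adjusted p of 0.168. With the block and the repeated library as 1, 2 Hox genes were higher, 3 lower and 0 noncoding genes called.

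Depth limits the genes with few reads. Hoxa2, Hoxa4, Hoxa6, Hoxd4 and Hoxd12 had at most 22 counts in any library.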

Other observations

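Genes just outside the HoxD cluster are known to share regulatory landscapes with it. Lnpk, which encodes an endoplasmic reticulum protein and is the next gene but one beyond Hoxd13, lies 88.9 kb outside the HoxD cluster. It had 764, 838 and 614 counts in Ctrl and 418 and 358 in Confine (log2 fold change -0.99, SE 0.20, edgeR adjusted p = 0.00105). Evx2, the homeobox gene between Lnpk and Hoxd13, had 4, 6, 15, 8 and 13 counts (log2 fold change 0.25, SE 0.72, adjusted p = 0.846). On the other side, Mtx2, a mitochondrial import gene, had 314, 495 and 226 counts against 355 and 341 (log2 fold change -0.03, SE 0.26, adjusted p = 0.945). Beyond HoxA, Evx1 was at 0 in all libraries, and Skap2, on the other side of that cluster, had 1144, 945 and 1039 counts against 1181 and 964 (log2 fold change -0.03, adjusted p = 0.940). These genes were named after their values were seen.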
